A study of Mus musculus with 12 samples.

Results

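Axon regeneration-associated genes are genes that injured neurons with a long axon, above all those of peripheral nerves, switch on when the axon is cut. The 7 genes described here, chosen by name with earlier results of these data known, are Atf3, Jun, Sox11, Sprr1a, Gap43, Stmn2 and Gal. They are 7 of the 37991 genes counted in the series, and 7 of 7 were among the 16473 genes that passed the filter on low counts. The RNA came from spinal cord of C57bl/6J mice of 1 line, adults aged over 8 weeks, with the genotype Glast-CreERT2 x R26R-YFP x Rasless in every group. The Glast promoter drives the tamoxifen-inducible recombinase CreERT2, and per the labels' protocol it was meant to recombine type A pericytes, a perivascular cell that contributes to the fibrotic scar. R26R-YFP is a fluorescent reporter of recombination. The alleles behind the name Rasless are not spelled out in the labels.

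In the tamoxifen lesion group (n = 4), mice received 2 mg of tamoxifen on each of 5 days, were left for 7 days, and then underwent a dorsal hemisection of the thoracic cord. The lesion site was taken 14 days after injury, and the design describes these lesions as having attenuated pericyte-derived scarring. The vehicle lesion group (n = 4) received the solvent of ethanol and corn oil in place of tamoxifen, with the same injury and interval, and its scarring is described as dense. The uninjured cord group (n = 4) consisted of mice labelled as injected with vehicle and not operated on. Libraries were made from whole dissected segments, so the cells in which Cre acted were not read separately. In such bulk samples, fewer cells of a type and less RNA per cell cannot be told apart.

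After axotomy, kinases of the JNK pathway carry an injury signal back to the cell body. There Jun and Atf3, leucine zipper proteins that bind DNA as pairs at AP-1 and CRE-type sites, and Sox11, a transcription factor of the SOX family, turn on genes for regrowth. Sprr1a, a small proline-rich protein better known from the cornified envelope of skin, Gap43, a membrane protein of growth cones, Stmn2, a regulator of microtubules, and the neuropeptide galanin, made from Gal, are among the genes that follow in peripheral neurons. Most central axons regenerate poorly. Several of these genes are not specific to neurons: Atf3 and Jun are also stress-response genes of macrophages, glia and fibroblasts.

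Library totals ran from 7967970 to 12581324 counts. Sex read from Xist and Y-linked transcripts was female in 4 and male in 0 tamoxifen lesion libraries, female in 1 and male in 3 vehicle lesion libraries, and female in 3 and male in 1 uninjured libraries. Of the tamoxifen lesion libraries, 3 (mice 513, 549 and 564) have sample names 106 to 108, whereas the other 9 libraries have names between 1 and 20; what these names stand for is not stated. Skeletal muscle transcripts were high in vehicle lesion mice 402, 429 and 457 and in uninjured mice 377 and 385. Sex, sample name and muscle transcripts therefore moved with tamoxifen, and their part in the results was not tested beyond the added terms and left-out libraries named below.

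The 7 genes differed in how they moved. Atf3, Sprr1a and Jun were higher in both lesion groups than in uninjured cord, while Gap43, Sox11 and Gal did not pass the test in any comparison. Stmn2 was lower in vehicle lesions than in uninjured cord and higher in tamoxifen lesions than in vehicle lesions. With edgeR's quasi-likelihood test and Benjamini-Hochberg adjustment over all genes tested, 4 of 7 genes passed an adjusted p of 0.05 in vehicle lesions against uninjured cord (3 higher, 1 lower), beside 50.8% of all genes tested. In tamoxifen lesions against uninjured cord 3 of 7 passed, all higher, beside 48.9% of all genes. In tamoxifen against vehicle lesions 1 of 7 passed, beside 16.1% of all genes. The shares of members called are thus near those of all genes in the comparisons with uninjured cord, and the median log2 change of the 7 genes was -0.06, 0.18 and -0.18 in these comparisons, beside 0.02, 0.01 and 0.00 over all genes tested. The comparisons share groups of libraries, so their values are given side by side and are not independent of each other.

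**Figure D1:**
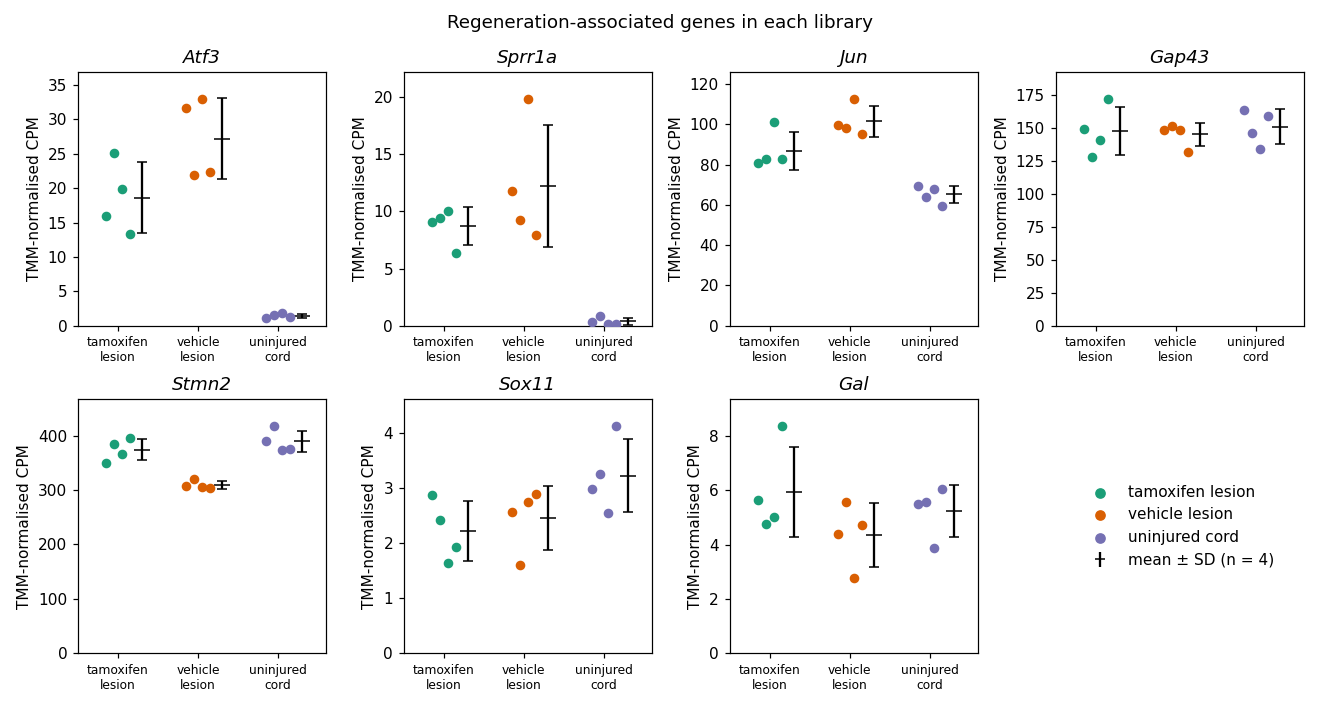
Level of each of the 7 genes in every library, in TMM-normalised counts-per-million (CPM, linear axes from 0), with the mean and SD of 4 libraries beside the points of each group. Atf3, Sprr1a and Jun have no overlap between either lesion group and uninjured cord. Stmn2 has none between vehicle lesions and tamoxifen lesions or uninjured cord, whereas the points of Gap43, Sox11 and Gal overlap between all groups. The share of all genes without such overlap was not counted.

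Of the transcription factors, Atf3 had the largest contrast between lesion and uninjured cord. Its level was 15.9, 25.2, 19.9 and 13.3 CPM in the tamoxifen lesions of mice 452, 513, 549 and 564. It was 31.6, 22.0, 33.0 and 22.3 CPM in the vehicle lesions of mice 402, 428, 429 and 457, against 1.15, 1.54, 1.85 and 1.23 CPM in uninjured mice 376, 377, 385 and 467, where it rested on 10 to 21 counts a library. Every lesion library lay above every uninjured library, and the lowest vehicle lesion values lay within the range of the tamoxifen lesions. The group means were 18.6 ± 5.16, 27.2 ± 5.88 and 1.44 ± 0.319 CPM (SD, n = 4 each) in tamoxifen lesions, vehicle lesions and uninjured cord. Atf3 rose 18.6-fold in vehicle lesions against uninjured cord (log2 4.22, SE 0.25, 95% interval 3.66 to 4.77, edgeR adjusted p = 1.08e-06), which is rank 93 of 16473 genes by log2 change. It rose 12.7-fold in tamoxifen lesions against uninjured cord (log2 3.67, SE 0.26, edgeR adjusted p = 1.37e-05). Between tamoxifen and vehicle lesions the log2 difference was -0.55 (95% interval -0.97 to -0.12) with an edgeR adjusted p of 0.072, so it did not pass after adjustment. Leaving out tamoxifen lesion mouse 513, the highest of its group, gave -0.73 with an edgeR adjusted p of 0.0404. This was the only 1 of 25 alternatives that passed. The other 24 did not, and all 25 ran from -0.81 to -0.24.

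Jun, the AP-1 subunit activated by JNK, was expressed in all groups and moved less. Its level was 80.8, 82.9, 101 and 82.8 CPM in the 4 tamoxifen lesions, in the mouse order given for Atf3. It was 99.6, 98.4, 112 and 95.01 CPM in vehicle lesions, against 69.2, 63.9, 68.0 and 59.6 CPM in uninjured cord. All lesion libraries lay above all uninjured libraries, and tamoxifen lesion mouse 549 lay within the range of the vehicle lesions while its 3 group mates lay below it. Jun rose 1.56-fold in vehicle lesions (log2 0.64, SE 0.08, edgeR adjusted p = 5.34e-05) and 1.33-fold in tamoxifen lesions (log2 0.42, SE 0.08, edgeR adjusted p = 0.00136), each against uninjured cord. By log2 change Jun ranked 2733 and 3503 of 16473 genes in these comparisons. The log2 difference of tamoxifen from vehicle lesions was -0.22 (95% interval -0.40 to -0.04; edgeR adjusted p = 0.0808). Without tamoxifen lesion mouse 549 it was -0.30 with an edgeR adjusted p of 0.021. Of 25 alternatives for this difference 3 passed and 22 did not, with values from -0.36 to -0.16. With a term for the sample name series, the rise in tamoxifen lesions against uninjured cord was 0.31 with an edgeR adjusted p of 0.133. Without the libraries high in muscle transcripts the log2 differences of Jun from uninjured cord were 0.41 in tamoxifen and 0.59 in vehicle lesions, with edgeR adjusted p of 0.0514 and 0.111. In the GENCODE annotation Jun overlaps the antisense gene Junos, and since strand use in counting is not stated, reads of the pair cannot be told apart.

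Sox11, a factor of developing and regenerating neurons, was low, with 13 to 47 counts a library. Its level was 2.88, 2.42, 1.65 and 1.93 CPM in tamoxifen lesions and 2.56, 1.60, 2.76 and 2.90 CPM in vehicle lesions, against 2.98, 3.26, 2.55 and 4.13 CPM in uninjured cord. The groups overlapped in each comparison. The log2 difference was -0.38 in vehicle lesions (95% interval -0.89 to 0.13; edgeR adjusted p = 0.199) and -0.56 in tamoxifen lesions (95% interval -1.07 to -0.04; edgeR adjusted p = 0.0696), each against uninjured cord. Without tamoxifen lesion mouse 452, the highest of its group, the tamoxifen value was -0.71 with an edgeR adjusted p of 0.0299. This was the only 1 of 25 alternatives that passed. The other 24 did not, and all 25 ran from -0.72 to -0.17. Tamoxifen differed from vehicle lesions by -0.18 (95% interval -0.70 to 0.35; edgeR adjusted p = 0.641).

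Sprr1a is among the most strongly induced genes of axotomised sensory neurons. Its level was 9.11, 9.41, 10.1 and 6.34 CPM in tamoxifen lesions and 11.8, 9.26, 19.8 and 7.92 CPM in vehicle lesions. In uninjured cord it was 0.344, 0.857, 0.176 and 0.176 CPM, from 3, 10, 2 and 2 counts. Lesion and uninjured libraries did not overlap, and vehicle lesion mouse 429 was the highest of all. Sprr1a rose 30.2-fold in vehicle lesions against uninjured cord (log2 4.92, SE 0.44, 95% interval 3.97 to 5.86, edgeR adjusted p = 5.52e-06), rank 47 of 16473 genes by log2 change. It rose 21.6-fold in tamoxifen lesions against uninjured cord (log2 4.43, SE 0.44, 95% interval 3.47 to 5.39, edgeR adjusted p = 2.95e-05). These folds depend on few uninjured counts. The log2 difference between tamoxifen and vehicle lesions was -0.48 (95% interval -1.14 to 0.17; edgeR adjusted p = 0.281). Without vehicle lesion mouse 429 it was -0.13 (edgeR adjusted p = 0.781), and the vehicle lesion value against uninjured cord was 4.55 (edgeR adjusted p = 1.36e-05).

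The promoters of the 3 genes that rose in the lesions are shown because the Jun and Atf3 proteins bind AP-1 and CRE-type sites. Binding to these promoters was not measured. The sequences are from RefSeq on GRCm38.p6, all on the minus strand, 5′ to 3′, and cover the 250 bases before the annotated start. They lie at chr1:191183334-191183583 for Atf3, chr4:95052223-95052472 for Jun and chr3:92485882-92486131 for Sprr1a. Capitals mark matches to AP-1, spelled TGANTCA, or to a looser CRE-like form, spelled TNACNTCA, each searched on both strands.
Atf3: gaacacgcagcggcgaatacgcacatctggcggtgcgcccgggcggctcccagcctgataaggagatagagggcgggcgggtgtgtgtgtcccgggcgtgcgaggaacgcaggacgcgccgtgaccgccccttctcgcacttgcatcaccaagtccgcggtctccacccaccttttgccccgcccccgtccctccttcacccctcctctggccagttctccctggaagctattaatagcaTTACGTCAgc
Jun: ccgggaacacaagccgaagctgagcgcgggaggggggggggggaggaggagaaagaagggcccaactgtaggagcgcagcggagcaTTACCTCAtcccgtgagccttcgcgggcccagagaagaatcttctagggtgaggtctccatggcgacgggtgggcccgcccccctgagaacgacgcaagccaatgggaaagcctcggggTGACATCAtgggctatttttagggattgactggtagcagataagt
Sprr1a: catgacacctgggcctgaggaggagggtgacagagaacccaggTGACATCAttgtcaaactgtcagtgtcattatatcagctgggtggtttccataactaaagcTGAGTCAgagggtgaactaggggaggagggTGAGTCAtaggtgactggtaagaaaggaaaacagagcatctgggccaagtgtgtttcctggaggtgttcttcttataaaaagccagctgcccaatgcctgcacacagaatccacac
The Sprr1a promoter held 2 copies of TGAGTCA, beginning 146 and 116 bases before the start, and the CRE-like TGACATCA. The Atf3 promoter held TTACGTCA, ending 3 bases before the start, and the Jun promoter held TTACCTCA and TGACATCA. Of 32851 mouse promoters in the table, 6.75% held AP-1 and 14.0% held the CRE-like form, which was chosen after the sequences were seen. The full CRE, TGACGTCA, stood in 1.55% of them and in none of the 5 members that have an entry. Among the genes that did not pass, the Sox11 promoter held 1 CRE-like match and the Gal promoter held none of the 3 motifs. Gap43 and Stmn2 have no entry in the table. A match describes these letters only.

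Gap43, the growth cone protein most often used to mark axon growth, was abundant and level across the groups. It stood at 149, 128, 141 and 172 CPM in tamoxifen lesions and 148, 151, 149 and 132 CPM in vehicle lesions, against 164, 146, 134 and 159 CPM in uninjured cord. All 3 groups overlapped. The log2 difference was -0.06 in vehicle lesions (95% interval -0.25 to 0.14; edgeR adjusted p = 0.639) and -0.03 in tamoxifen lesions (95% interval -0.23 to 0.17; edgeR adjusted p = 0.8), each against uninjured cord. For tamoxifen against vehicle lesions it was 0.02 (95% interval -0.17 to 0.22; edgeR adjusted p = 0.874).

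Stmn2, a stathmin of growing and mature axons, was the most abundant of the 7 genes. It stood at 351, 386, 367 and 395 CPM in tamoxifen lesions and 307, 320, 306 and 304 CPM in vehicle lesions, against 391, 417, 374 and 376 CPM in uninjured cord. Every vehicle lesion library lay below every other library, while tamoxifen lesions and uninjured cord overlapped. Stmn2 fell in vehicle lesions against uninjured cord (log2 -0.33, SE 0.06, 95% interval -0.45 to -0.21, edgeR adjusted p = 0.000342). In tamoxifen lesions it was 1.21-fold higher than in vehicle lesions (log2 0.28, SE 0.06, 95% interval 0.16 to 0.40, edgeR adjusted p = 0.0083). Against uninjured cord the tamoxifen value was -0.06 (95% interval -0.18 to 0.07; edgeR adjusted p = 0.433). The difference between tamoxifen and vehicle lesions was 0.18 (edgeR adjusted p = 0.35) with a term for the sample name series and 0.26 (edgeR adjusted p = 0.0685) with a term for sex, so the call was lost in both. Without the libraries high in muscle transcripts it was 0.23, and the vehicle lesion value against uninjured cord was -0.29 (edgeR adjusted p = 0.645 and 0.207). Tamoxifen and the sample name series can be separated through 1 library, that of mouse 452, which at 351 CPM had the lowest Stmn2 level of its group.

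Gal was low, with 30 to 91 counts a library. Its level was 5.63, 4.75, 5.03 and 8.36 CPM in tamoxifen lesions and 4.38, 5.56, 2.76 and 4.70 CPM in vehicle lesions, against 5.51, 5.57, 3.87 and 6.06 CPM in uninjured cord. The groups overlapped, with tamoxifen lesion mouse 564 the highest and vehicle lesion mouse 429 the lowest. The log2 difference was -0.28 in vehicle lesions (95% interval -0.80 to 0.24; edgeR adjusted p = 0.359) and 0.18 in tamoxifen lesions (95% interval -0.33 to 0.69; edgeR adjusted p = 0.55), each against uninjured cord. Between tamoxifen and vehicle lesions it was 0.46 (95% interval -0.06 to 0.98; edgeR adjusted p = 0.197). Of the galanin receptors tested, Galr1 fell to 1.02 ± 0.186 CPM in vehicle lesions against 3.71 ± 0.353 CPM in uninjured cord (log2 -1.85, SE 0.40, edgeR adjusted p = 0.00206). It fell to 1.75 ± 1.30 CPM in tamoxifen lesions against the same uninjured libraries (log2 -1.12, SE 0.38, edgeR adjusted p = 0.027), a call that was lost in 9 of 25 alternatives. Galr2 did not pass in any comparison, with group means of 0.677, 1.33 and 1.21 CPM in tamoxifen lesions, vehicle lesions and uninjured cord.

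**Figure D2:**
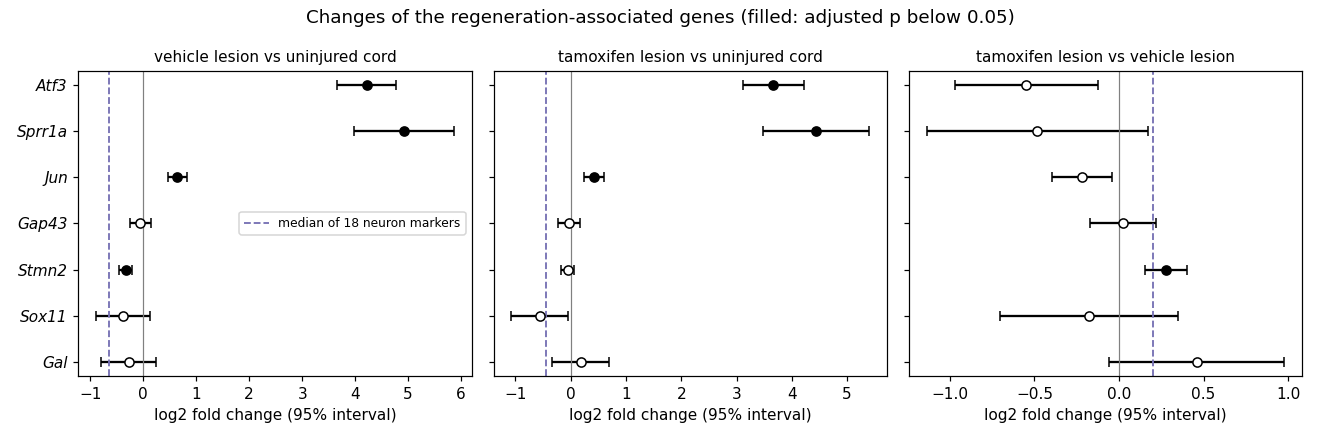
Log2 fold change of the 7 genes with its 95% interval in each comparison (edgeR; filled points have an adjusted p below 0.05), with a dashed line at the median log2 change of 18 neuron markers. Atf3 and Sprr1a stand at 3.67 or more against uninjured cord in both lesion groups, Jun at 0.64 and 0.42 in vehicle and tamoxifen lesions, and Stmn2 is the filled point between tamoxifen and vehicle lesions, at 0.28; the horizontal scales differ between panels.

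Levels can be set beside each other per transcript length with the authors' FPKM. In uninjured cord the order of mean FPKM was Stmn2 (186), Gap43 (98.0), Jun (23.0), Gal (7.39), Sox11 (1.39), Atf3 (0.779) and Sprr1a (0.492). In vehicle lesions it was Stmn2 (146), Gap43 (95.9), Jun (32.8), Sprr1a (16.2), Atf3 (16.01), Gal (6.45) and Sox11 (1.03). Atf3 and Sprr1a, the lowest of the 7 in uninjured cord, thus stood above Gal and Sox11 in vehicle lesions. By group means the order was the same in tamoxifen lesions, at 11.96 for Sprr1a and 10.999 for Atf3, against 9.19 for Gal and 0.978 for Sox11. The tamoxifen lesion libraries overlapped, however. Gal stood above Atf3 in mouse 452 (7.74 against 7.28) and in mouse 564 (13.3 against 7.17), and above Sprr1a in mouse 564 (13.3 against 9.07). In mice 513 and 549 Gal stood below both. The means of Atf3 and Sprr1a in each lesion group lay within the library spread of each other.

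Markers of other cell types were also read, beside 26.7% of all genes higher in vehicle lesions against uninjured cord. In tamoxifen lesions against uninjured cord the share was 26.3%, and in tamoxifen against vehicle lesions 8.33% of all genes were lower. All 11 of 11 macrophage and microglia markers rose in both lesion groups against uninjured cord, and their summed level ran from 846 to 1742 CPM in tamoxifen lesions and 1127 to 2264 CPM in vehicle lesions, against 237 to 292 CPM in uninjured cord. In vehicle lesions mice 429 and 402 had the highest sums, 2264 and 2227 CPM, and also the highest Atf3 levels. In tamoxifen lesions the highest sum was that of mouse 549, at 1742 CPM, while mouse 513, with 1513 CPM, had the highest Atf3 level. Fibroblast and pericyte markers rose in 9 of 9 in vehicle lesions and 5 of 9 in tamoxifen lesions, each against uninjured cord, and 7 of 9 fell in tamoxifen against vehicle lesions. Their summed level was 749 to 1146 CPM in tamoxifen lesions and 2950 to 7971 CPM in vehicle lesions, against 273 to 639 CPM in uninjured cord. Schwann cell and nerve root markers rose in 6 of 10 in vehicle lesions and 3 of 10 in tamoxifen lesions against uninjured cord. The tamoxifen count is near the share of all genes, and the median log2 change there was -0.02. The Schwann cell and nerve root markers summed to 842 to 895 CPM in tamoxifen lesions and 939 to 1147 CPM in vehicle lesions. In uninjured cord they summed to 676 to 926 CPM. Astrocyte markers rose in 6 of 7 in tamoxifen lesions and 5 of 7 in vehicle lesions, with sums of 9949 to 13648 CPM in tamoxifen lesions and 9388 to 11927 CPM in vehicle lesions, against 5381 to 6124 CPM in uninjured cord. The part of these cells in the levels of Atf3, Jun and Sprr1a was not tested.

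Markers of sensory and motor neurons and of keratinocytes were read in the same way, and their part in the levels of the 7 genes was not tested. Against uninjured cord 24.1% of all genes were lower in vehicle lesions and 22.7% in tamoxifen lesions. Between tamoxifen and vehicle lesions 7.79% were higher. The summed sensory ganglion markers were 7.92 to 11.9 CPM in tamoxifen lesions and 14.9 to 23.0 CPM in uninjured cord, and in vehicle lesions they ran from 8.34 CPM to 39.4 CPM in mouse 429, the library with the most Sprr1a and the only lesion library above the uninjured range. The filter on low counts was passed by 3 of the 9 sensory ganglion markers analysed, and 1 of these fell in each lesion group against uninjured cord. Motor neuron markers summed to 375 to 585 CPM in tamoxifen lesions and 447 to 526 CPM in vehicle lesions, against 453 to 553 CPM in uninjured cord, and 1 of 7 fell in each lesion group. Keratinocyte markers summed to 19.3 to 25.8 CPM in tamoxifen lesions and 13.9 to 17.1 CPM in vehicle lesions, against 26.2 to 29.8 CPM in uninjured cord, and of the 4 tested, 2 fell in vehicle lesions and 1 in tamoxifen lesions against uninjured cord, while 1 was higher in tamoxifen than in vehicle lesions. Krt5 was at 0 in all vehicle lesion libraries.

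Neuron markers fell in the lesions. In vehicle lesions 18 of 18 were lower than in uninjured cord, with a median log2 change of -0.65, beside 24.1% of all genes lower. In tamoxifen lesions 16 of 18 were lower, with a median of -0.44, beside 22.7% of all genes. In tamoxifen against vehicle lesions 2 of 18, Elavl4 and Uchl1, were higher, beside 7.79% of all genes, and the median was 0.20. Gap43 and Stmn2 are best known as neuronal genes, and their levels were also read relative to the mean log2 CPM of the 18 neuron markers in the same library. That mean was 8.05 to 8.46 in tamoxifen lesions and 7.90 to 8.22 in vehicle lesions, against 8.74 to 8.81 in uninjured cord.

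Relative to the neuron markers, Gap43 stood at -1.07 ± 0.122 in tamoxifen lesions and -0.915 ± 0.175 in vehicle lesions, against -1.53 ± 0.110 in uninjured cord (log2, SD, n = 4 each). Every lesion library lay above every uninjured library. The difference was 0.62 in vehicle lesions and 0.46 in tamoxifen lesions against uninjured cord, each with p = 0.0286 by a two-sided exact permutation test, the smallest p that groups of 4 allow. Between tamoxifen and vehicle lesions it was -0.16 (exact permutation p = 0.2). Stmn2 stood at 0.280 ± 0.192 in tamoxifen lesions and 0.178 ± 0.123 in vehicle lesions, against -0.160 ± 0.0710 in uninjured cord. The differences were 0.44 and 0.34 in tamoxifen and vehicle lesions against uninjured cord (exact permutation p = 0.0286 each), and 0.10 between tamoxifen and vehicle lesions (exact permutation p = 0.343). These 6 p-values were not adjusted. The neuron marker mean was lower in every lesion library than in every uninjured library, so a gene that stays level rises on this scale. Gap43 itself changed by log2 -0.06 and -0.03 in vehicle and tamoxifen lesions, beside medians of 0.02 and 0.01 over all genes tested. The test therefore cannot tell a rise of either gene from the fall of the markers. The share of all genes that rise on this scale was not counted. With the median of the neuron markers in place of their mean, Gap43 in tamoxifen lesions was 0.23 above uninjured cord (exact permutation p = 0.0571) and Stmn2 in vehicle lesions was 0.09 above it (exact permutation p = 0.114). Which cells of the lesions held these transcripts was not tested. Against uninjured cord, astrocyte markers rose in 5 of 7 in vehicle lesions and 6 of 7 in tamoxifen lesions. Schwann cell and nerve root markers rose in 6 of 10 and 3 of 10, beside 26.7% and 26.3% of all genes higher. In the absolute levels Gap43 did not pass and Stmn2 fell in vehicle lesions, so the direction for Stmn2 depends on which of the scales is read.

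**Figure D3:**
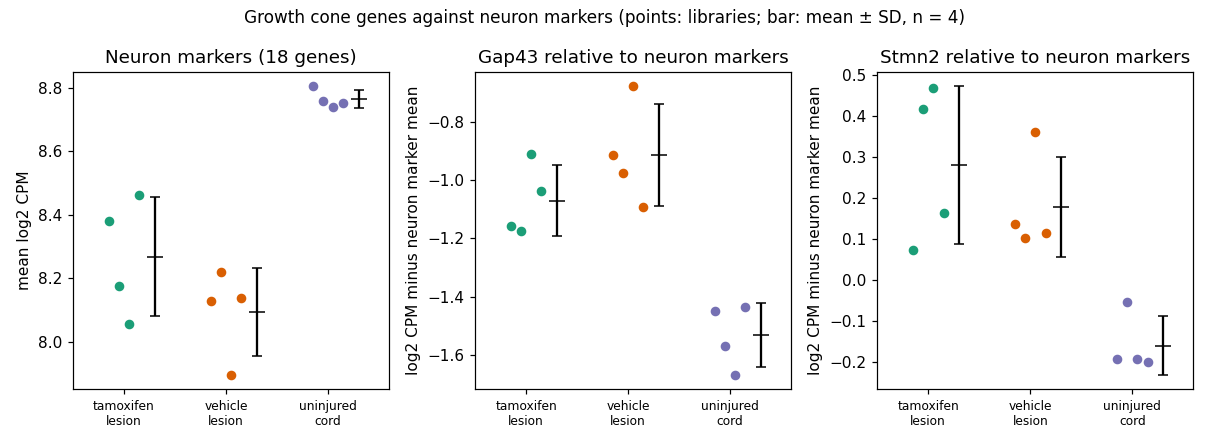
Mean log2 CPM of 18 neuron markers in each library (left), and the log2 CPM of Gap43 (middle) and Stmn2 (right) minus that mean, with mean and SD of 4 libraries a group. Lesion libraries lie below uninjured libraries for the neuron markers and above them for both relative levels. A gene that stays level also rises on the relative scale when the markers fall. The axes do not start at 0.

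Further genes linked to the axotomy response were read from lists of companions. The lists were chosen with earlier results of these data known, so their counts beside all genes are descriptions. They are not limited to genes that favour regrowth. Of 21 regeneration transcription factors tested, 14 rose and 1 fell in vehicle lesions against uninjured cord, with a median log2 change of 0.49, beside 26.7% of all genes higher and 24.1% lower. In tamoxifen lesions 12 rose and 1 fell against uninjured cord, with a median of 0.40, beside 26.3% and 22.7% of all genes. The part of macrophages, microglia and other glia in these counts was not tested. Junb, an AP-1 subunit, was at 24.6 ± 3.06 CPM in tamoxifen lesions and 25.8 ± 2.62 CPM in vehicle lesions, against 13.2 ± 0.949 CPM in uninjured cord (log2 0.90 and 0.96, edgeR adjusted p = 6.66e-05 and 2.01e-05). Cebpd, an injury-responsive C/EBP factor, was at 23.8 ± 9.08 CPM in tamoxifen lesions and 21.0 ± 8.23 CPM in vehicle lesions, against 3.37 ± 0.600 CPM in uninjured cord (log2 2.82 and 2.62). Myc, a growth regulator, rose by 1.04 and 1.28 on the log2 scale in tamoxifen and vehicle lesions, Fosl2, a partner of Jun, by 0.63 and 1.10, and Klf6, a Krüppel-like factor that promotes neurite growth, by 0.87 and 0.88. In tamoxifen lesions against vehicle lesions 2 of 21 passed, both lower, beside 7.79% of all genes higher and 8.33% lower. These were Fosl2 (25.9 ± 6.58 against 35.9 ± 0.871 CPM, log2 -0.47, edgeR adjusted p = 0.0326) and Ddit3, a stress-response factor (log2 -0.26, edgeR adjusted p = 0.0366).

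Of 26 axotomy-induced effectors listed, 23 passed the filter, and Ankrd1, Reg3b and Gpr151 did not. In vehicle lesions 13 of 23 rose and 5 fell against uninjured cord (median log2 change 0.70), beside 26.7% of all genes higher and 24.1% lower. In tamoxifen lesions 11 rose and 3 fell (median 0.25), beside 26.3% and 22.7% of all genes. The 11 macrophage and microglia markers moved with them, and their part in these counts was not tested. Socs3, an inhibitor of cytokine signalling that restrains axon regrowth, was at 16.5 ± 4.10 CPM in tamoxifen lesions and 20.1 ± 3.65 CPM in vehicle lesions, against 2.68 ± 0.988 CPM in uninjured cord (log2 2.604 and 2.89). Plaur, the urokinase receptor, was at 8.02 ± 1.42 CPM in tamoxifen lesions and 11.7 ± 4.51 CPM in vehicle lesions, against 0.808 ± 0.484 CPM in uninjured cord (log2 3.35 and 3.89). Gch1, which makes the cofactor tetrahydrobiopterin, rose by 1.16 and 1.39 on the log2 scale in tamoxifen and vehicle lesions, whereas Sez6l fell by 0.66 and 0.74. Of these 23, 1 rose and 1 fell in tamoxifen against vehicle lesions, beside 7.79% and 8.33% of all genes. Arg1, an enzyme of polyamine synthesis in neurons and of alternatively activated macrophages, was at 9.97 ± 9.44 CPM in tamoxifen lesions against 1.87 ± 1.05 CPM in vehicle lesions (log2 2.43, SE 0.69, edgeR adjusted p = 0.0329). Cdkn1a, a cell cycle inhibitor, fell to 32.5 ± 2.20 CPM in tamoxifen lesions against 47.1 ± 13.8 CPM in vehicle lesions (log2 -0.54, edgeR adjusted p = 0.0471).

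The growth cone and cytoskeleton list split both ways. Of 22 genes, 4 rose and 11 fell in vehicle lesions against uninjured cord (median log2 change -0.28), beside 26.7% of all genes higher and 24.1% lower. In tamoxifen lesions 7 rose and 8 fell (median -0.13), beside 26.3% and 22.7% of all genes. Marcks, a membrane protein kin to Gap43 in its binding of calmodulin and actin, was at 251 ± 33.5 CPM in tamoxifen lesions and 255 ± 39.4 CPM in vehicle lesions, against 118 ± 15.4 CPM in uninjured cord (log2 1.09 and 1.11). L1cam, an adhesion molecule of axons, fell by 0.63 in tamoxifen lesions and by 0.44 in vehicle lesions on the log2 scale. Map1b, a microtubule protein of axons, fell by 0.85 and 0.59 in tamoxifen and vehicle lesions, Dpysl5 by 0.69 and 0.57, and Gprin1 by 0.71 and 0.90, while Cap1, an actin regulator, rose by 0.33 and 0.38. In tamoxifen against vehicle lesions 3 of 22 rose and 1 fell, beside 7.79% and 8.33% of all genes. The tubulins Tuba1a (974 ± 213 against 686 ± 47.6 CPM, log2 0.51, edgeR adjusted p = 0.0302) and Tubb3 (log2 0.21, edgeR adjusted p = 0.036) and the stathmin Stmn3 (log2 0.34, edgeR adjusted p = 0.0438) were higher, and Dpysl3, a collapsin response mediator, was lower (log2 -0.44, edgeR adjusted p = 0.00813).

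Of the kinases and sensors upstream of the axotomy response, 16 of 18 passed the filter. In vehicle lesions 5 rose and 8 fell against uninjured cord (median log2 change -0.20), beside 26.7% of all genes higher and 24.1% lower. In tamoxifen lesions 7 rose and 9 fell (median -0.34), beside 26.3% and 22.7% of all genes. Map3k13, a kinase at the head of the JNK cascade, was at 20.0 ± 1.64 CPM in tamoxifen lesions and 24.4 ± 3.53 CPM in vehicle lesions, against 44.0 ± 2.97 CPM in uninjured cord (log2 -1.14 and -0.85). The JNK genes Mapk9 and Mapk10 fell by 0.39 and 0.56 in tamoxifen lesions and by 0.62 and 0.72 in vehicle lesions. Mtor, the growth kinase, fell by 0.59 and 0.42 in tamoxifen and vehicle lesions and the JNK scaffold Mapk8ip3 by 0.61 and 0.56, whereas Hif1a, a hypoxia sensor, rose by 0.69 and 0.65. Between tamoxifen and vehicle lesions 2 of 16 rose, beside 7.79% of all genes. Among them was Mapk9, at 292 ± 20.4 CPM in tamoxifen lesions against 251 ± 17.2 CPM in vehicle lesions (log2 0.22, edgeR adjusted p = 0.0338). For Mapk10 the log2 ratio of CPM to FPKM stepped by 0.84 between the 3 high sample name series libraries and the other 9. Such a step was seen for 499 of 15268 genes and for 0 of the 7 members. The ratios of Gap43, Stmn2, Sprr1a and Gal differed without overlap but by less. Their differences, high series minus others, were -0.10, -0.06, -0.27 and -0.18. Between tamoxifen and vehicle lesions the number of genes called moved by over 1.5 times in 14 of 25 alternatives for the transcription factors (0 to 3), growth cone genes (0 to 7) and effectors (0 to 4), and in 11 of 25 for the upstream genes (0 to 5). With a term for that series, 0 genes of each of these 4 lists passed edgeR's adjusted threshold between tamoxifen and vehicle lesions. Of all 16473 genes tested, 57 passed there, against 2655 in the main fit, so few genes of any kind were called. At an unadjusted edgeR p below 0.05 stood 4 transcription factors, 6 effectors, 2 growth cone genes and 1 upstream gene. With the same term, 1951 of all 16473 genes were called in tamoxifen lesions against uninjured cord. Among them were 5 transcription factors, 6 effectors, 3 growth cone genes and 8 upstream genes. Without the libraries high in muscle transcripts 1 vehicle lesion library is left, so no count of called genes is given for these lists.

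**Figure D4:**
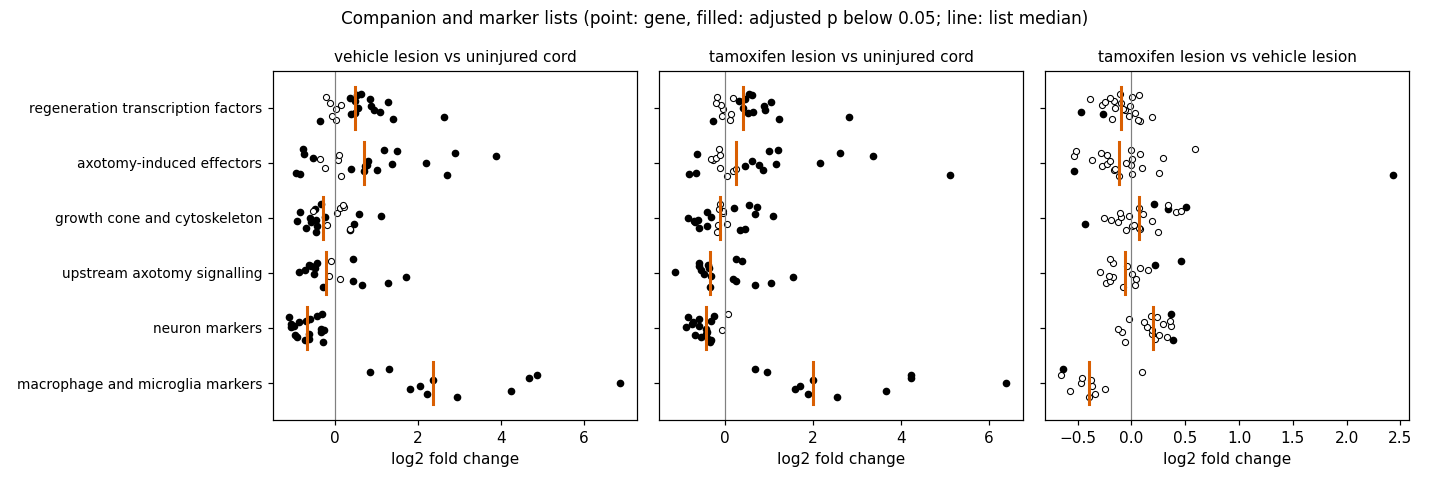
Log2 fold change of each gene of 4 companion lists and 2 marker lists in each comparison (points; filled where edgeR's adjusted p is below 0.05), with a vertical line at each list's median. Macrophage and microglia markers lie furthest right and neuron markers lie left of 0 against uninjured cord (list medians 2.38 and -0.65 in vehicle lesions); the horizontal scales differ between panels.

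The genes nearest to each member in pattern were taken by the root mean square (RMS) difference of centred log2 CPM over the 12 libraries, among 13185 genes (13186 for Sox11). Nearest to Atf3 were C3ar1, the receptor of complement C3a (RMS 0.282), and Apobec1, a cytidine deaminase (RMS 0.295). C3ar1 averaged 47.5 CPM in tamoxifen lesions and 67.6 CPM in vehicle lesions, against 3.39 CPM in uninjured cord. Nearest to Sprr1a were Slc43a3 (RMS 0.292), at 29.5, 35.4 and 1.62 CPM in tamoxifen lesions, vehicle lesions and uninjured cord, and Mpeg1, a pore-forming protein of macrophages (RMS 0.399), at 460, 667 and 33.0 CPM. Stmn2 was nearest to Cab39 (RMS 0.0421), at 277, 230 and 283 CPM in the same groups, and to Ndufs1, a subunit of mitochondrial complex I (RMS 0.0446). Jun was nearest to Sft2d2 (RMS 0.0714) and Tmem43 (RMS 0.0727), and Gap43 to Thoc3 (RMS 0.0723) and Nub1 (RMS 0.0724). Sox11 was nearest to Gm15663 (RMS 0.183) and Trim7 (RMS 0.212), and Gal to Atp5e and Aard (RMS 0.202 each). The libraries share group means, and a small RMS is easier to reach for a gene that varies little, so these values are descriptions.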

How the data were processed

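Bulk RNA-seq of 12 mouse spinal cord libraries, 3 groups of 4, was analysed. The authors deposited whole-number counts per Ensembl gene, and FPKM, a level per transcript length and library depth. Per the submitters' processing notes the build was mm9, and TopHat, Picard, Cufflinks and HTSeq were used; the sources used here do not give their roles, settings or strand use. Reference names were taken from a later build, so no positions of the files are printed. Tests on the counts used edgeR 4.0.16 (R 4.3.3), with filterByExpr at its defaults (minimum count 10, minimum total 15), TMM factors, and 1 quasi-likelihood fit of 3 group means over all 12 libraries, two-sided, with Benjamini-Hochberg adjustment over 16473 genes and a threshold of 0.05. The edgeR p-values set each group difference against the estimated spread between mice. That spread also holds differences of sex, sample name series and muscle transcripts within groups. Without molecular identifiers, the counting error of a value covers sampling alone. FPKM served for levels between genes and for alternatives with limma 3.58.1.

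The 7 genes and all lists were chosen with earlier results of these data known. All 7 members were named whatever their values. From each companion list up to 4 genes with the smallest p in a comparison were named, and for each member the 2 genes nearest in pattern among those with a mean of at least 5 CPM. Galr3, Slc18a3 and Drgx were not analysed here, and 1 gene under this rule is not reported here. Libraries were called high in muscle transcripts where the skeletal muscle markers averaged above 2 in log2 CPM. Stepped genes had log2 ratios of CPM to FPKM that differed by more than 0.5 between the sample name series, with no overlap of libraries. Promoter sequences came from RefSeq, and 5 of 7 members matched by symbol. The fits were also run on simulated counts with the same spread for every gene. Those counts held no differences of sex, sample name series or muscle transcripts, so the run does not cover these. Alternatives were other scalings, filters, DESeq2 1.42.0, limma-voom, limma on log2(FPKM + 1) and log2(FPKM + 0.1), terms for sex and sample name series, and left-out libraries.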

Additional observations from a re-analysis of the deposited data

Results flagged for a closer look

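Of 27 groups of 4 libraries checked, 5 held a value far from its 3 group mates by Dixon's 95% criterion, which chance passes in about 5% of groups. In tamoxifen lesions, Jun was 101.019 CPM in mouse 549, with the other 3 between 80.8 and 82.9 CPM. In vehicle lesions, Gap43 was 131.855 CPM in mouse 457, with the others between 148 and 151 CPM, and Stmn2 was 319.612 CPM in mouse 428, with the others between 304 and 307 CPM. Relative to the neuron markers, Stmn2 was 0.361011 in vehicle lesion mouse 429, with the others between 0.102 and 0.135, and -0.05319 in uninjured mouse 377, with the others between -0.199 and -0.193.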

How the results depend on the processing

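Atf3 and Sprr1a stayed past the edgeR, DESeq2 or limma threshold against uninjured cord in each of 25 alternatives, in both lesion groups. Over the 7 genes and 3 comparisons, 510 of 525 recomputed log2 changes kept their side of the threshold, 9 lost and 6 gained a call, and 0 reversed a call. In vehicle lesions against uninjured cord the members called stayed at 4, except without the libraries high in muscle transcripts. That fit leaves 1 vehicle lesion library assumed to vary like the others, with log2 changes of 0.59 for Jun and -0.29 for Stmn2. In tamoxifen lesions against uninjured cord the members called ran from 2 to 4. They were 2 with a term for the sample name series, beside 1951 of all 16473 genes. In tamoxifen against vehicle lesions 2 members were called with library totals alone (Jun, Stmn2) and 2 with a term for sex (Jun, Sprr1a). Of all 16473 genes tested, 2671 and 989 were called in these fits, and 2655 in the main fit. When a library was left out, 1 to 2 members were called. With a term for the sample name series 0 members were called (3 at an unadjusted edgeR p below 0.05), beside 57 of all 16473 genes. Without the muscle-high libraries 1 vehicle lesion library is left, and Stmn2 was 0.23 higher in tamoxifen lesions on the log2 scale. Without the tamoxifen libraries of the high series, an alternative added after seeing the data, 1 tamoxifen lesion library is left. Stmn2 was then 0.18 higher than in vehicle lesions. The cause of these shifts was not tested. With the term for sex, Sprr1a was -1.21 and Jun -0.36 in tamoxifen against vehicle lesions (edgeR adjusted p = 0.0459 and 0.0468).

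Relative to the neuron markers' median, Gap43 in tamoxifen lesions against uninjured cord was 0.23 and Stmn2 in vehicle lesions 0.089. Leaving out a library gave Stmn2 in tamoxifen lesions 0.43 to 0.48 without 1 uninjured library (exact permutation p = 0.0571), and 0.38 to 0.51 over all libraries left out. Depth limits Sprr1a in uninjured cord, Sox11 and Gal. No paired analysis was possible because the groups share no replicate numbers.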
